A study of Mus musculus with 6 samples.

Results

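Histone H2B carrying a single ubiquitin (H2Bub) was examined at 3 cell cycle genes, Ccnd1, Cdkn1a and Myc, in myotubes and growing myoblasts of C2C12, a mouse myoblast line. The genes were taken by name, with earlier results of these data known, and by fixed gene intervals on genome build mm9 that use no measured value. All 3 of 3 are described. The rest of the genome was represented by 263903 consecutive 10 kb windows on chromosomes 1 to 19 and X. The Ccnd1 interval was chr7:152115500-152126000 on the minus strand, the Cdkn1a interval chr17:29227500-29238000 on the plus strand and the Myc interval chr15:61816500-61822000 on the plus strand. No mm9 annotation was at hand. The intervals were 600, 757 and 480 bp longer than the RefSeq genes on another build, and lay on the same chromosomes. Coordinates below are mm9 unless another build is named.

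Myotubes (MT, 3 libraries) had been kept for 96 h in 2% horse serum after confluence, with fresh medium on day 2 and harvest on day 4. Myoblasts (MB, 3 libraries) were growing in 10% fetal bovine serum and were taken at about 40% confluency. The 6 libraries come from 1 cell line, written C2C12 under cell type and C1C12 under source. All used chromatin cut with micrococcal nuclease and 1 H2Bub antibody clone, with a different lot number listed for each library. The labels number the replicates but do not say that they were separate cultures, so p-values measure the spread between these libraries, which may be technical. The labelled cell types were not checked against marker genes. Input and other histone marks were not used here. Myotube libraries held 8759266 to 14467774 reads on the chromosomes used, and myoblast libraries 9285330 to 15891204.

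H2B is ubiquitylated by the RNF20/RNF40 ligase while RNA polymerase II moves through a gene, so the mark is known as one of transcribed gene bodies. Ccnd1 encodes cyclin D1, which activates CDK4 and CDK6 and drives cells from G1 into S phase. Cdkn1a encodes p21, an inhibitor of cyclin-dependent kinases that MyoD induces when myoblasts leave the cell cycle. Myc encodes a transcription factor that promotes growth and proliferation and opposes muscle differentiation.

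RefSeq promoter sequences were matched for 1 of the 3 genes, Cdkn1a, at 2 annotated starts 2790 bp apart. Only Cdkn1a is shown because no promoter sequence was at hand for Ccnd1 or Myc. No relation of these sequences to the reads was tested. Each sequence is the 250 bases before a start, plus strand, 5′ to 3′, from GRCm38.p6, whose positions are not comparable with the mm9 positions here. Capitals mark CANNTG, the E-box core bound by MyoD-type factors, and GGGCGG, a GC box, searched on both strands. CACGTG, the E-box that Myc-type factors prefer and a form of CANNTG, was also searched.
Cdkn1a, upstream start, chr17:29090729-29090978: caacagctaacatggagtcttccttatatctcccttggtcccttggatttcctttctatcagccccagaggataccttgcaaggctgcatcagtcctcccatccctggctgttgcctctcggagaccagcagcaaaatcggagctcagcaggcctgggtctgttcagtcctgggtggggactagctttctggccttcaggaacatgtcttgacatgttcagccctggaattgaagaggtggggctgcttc
Cdkn1a, downstream start, chr17:29093519-29093768: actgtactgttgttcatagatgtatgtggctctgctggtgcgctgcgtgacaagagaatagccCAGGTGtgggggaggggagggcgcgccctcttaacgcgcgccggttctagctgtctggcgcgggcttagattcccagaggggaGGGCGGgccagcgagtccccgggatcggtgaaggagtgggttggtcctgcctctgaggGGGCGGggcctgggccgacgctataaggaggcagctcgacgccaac
The window before the upstream start held none of these letters. The window before the downstream start held 1 CANNTG, beginning 187 bases before the start, and 2 GGGCGG, beginning 104 and 46 bases before it. Of 32851 RefSeq promoter windows of this length, 66.2% held CANNTG, 6.02% CACGTG and 32.7% GGGCGG. These matches are a description of the letters.

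Myotubes had fewer H2Bub reads than myoblasts over Ccnd1 and Cdkn1a, per total reads, at 0.539 and 0.542 times the myoblast mean; scaled by reads in MB peaks, the peaks listed for myoblasts, both were higher. Myc was at 0.789 times the myoblast mean, a difference within the spread of the libraries. With total reads, 2 of the 3 intervals were thus called lower and 0 higher (limma voom, adjusted p under 0.05 over all windows and intervals). Of all 10 kb windows tested, 13.1% were called lower and 70.9% higher. Among windows with an MB peak 85.7% were lower and 0.339% higher, and among windows without any peak 0.953% were lower.

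For Ccnd1, the 3 myotube libraries held 29, 22 and 42 reads in the interval, against 36, 56 and 107 in the 3 myoblast libraries. Per 1000000 reads (RPM) this was 3.31, 2.38 and 2.90 in myotubes against 3.88, 5.34 and 6.73 in myoblasts. The groups did not overlap. The share of windows with groups apart in RPM is not given here, so the separation is not read as particular to Ccnd1. Myotube replicate 1 and myoblast replicate 1 were close. Their 95% Poisson intervals, 2.22 to 4.75 and 2.72 to 5.37 RPM, overlapped and cover counting error only. Ccnd1 averaged 2.86 ± 0.466 RPM in myotubes and 5.32 ± 1.43 RPM in myoblasts (SD, n = 3 each). The log2 fold change was -0.87 (SE 0.23, limma voom, adjusted p = 0.00122).

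Cdkn1a had the most reads of the 3 intervals in myoblasts. It had 36, 36 and 113 reads in myotubes, against 68, 114 and 175 in myoblasts. In RPM this was 4.11, 3.90 and 7.81 in myotubes, against 7.32, 10.9 and 11.0 in myoblasts. Myotube replicate 3 lay above myoblast replicate 1, so the groups overlapped. The means were 5.27 ± 2.20 RPM in myotubes and 9.73 ± 2.09 RPM in myoblasts (SD, n = 3 each), and the log2 fold change was -0.87 (SE 0.23, limma voom, adjusted p = 0.00123).

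Myc had 34, 17 and 81 reads in myotubes, against 39, 47 and 90 in myoblasts. In RPM this was 3.88, 1.84 and 5.60 in myotubes, against 4.20, 4.48 and 5.66 in myoblasts. The myotube libraries spread widely: replicate 2 was below every myoblast library and replicate 3 nearly equalled the highest of them. The means were 3.77 ± 1.88 RPM in myotubes and 4.78 ± 0.777 RPM in myoblasts (SD, n = 3 each). The log2 fold change of -0.38 did not pass the threshold (SE 0.25, limma voom, adjusted p = 0.147). The result rested on single myotube libraries: without replicate 3 the log2 fold change was -0.83 (adjusted p = 0.0111), and without replicate 2 it was -0.0044 (adjusted p = 0.986). Taken alone, the RPM values gave an exact permutation p of 0.1 for Ccnd1, 0.2 for Cdkn1a and 0.4 for Myc (two-sided, 3 against 3 libraries).

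**Figure D1:**
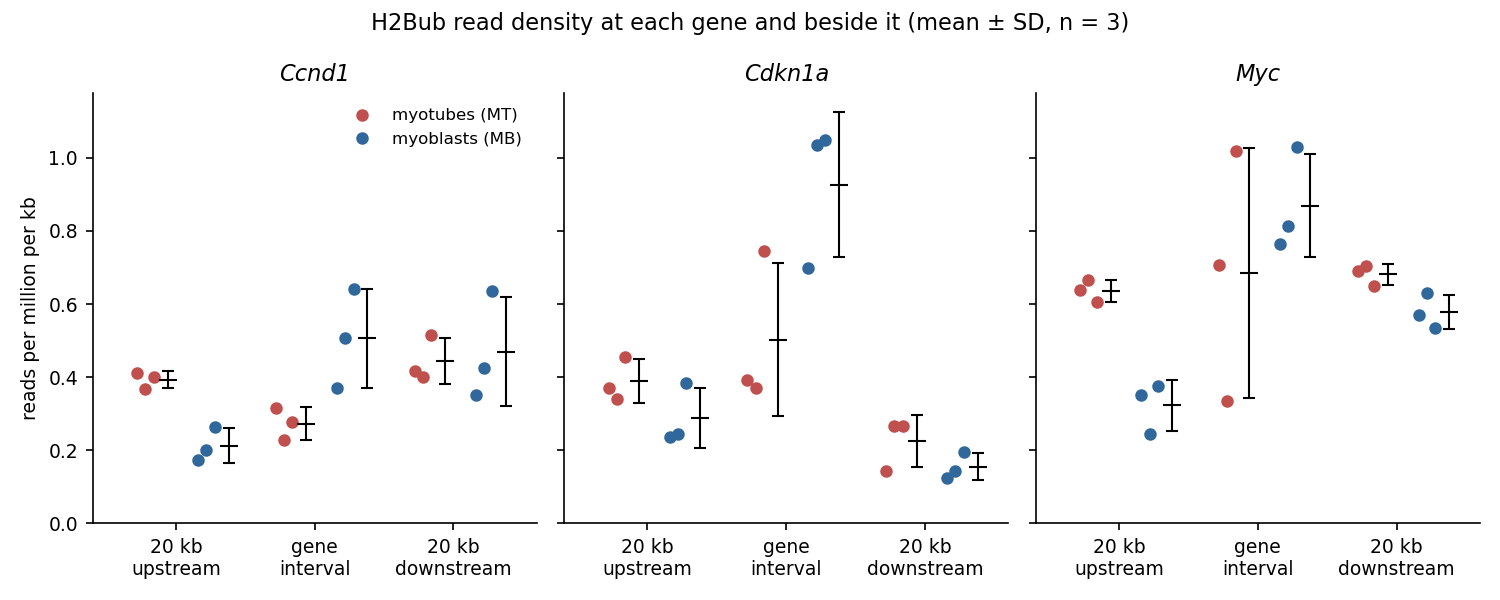
RPM per kb in each gene interval and in the 20 kb on both sides of it, with 1 point per library and the mean ± SD (n = 3) beside the points. Scaled by total reads, the 3 myotube points lie below the 3 myoblast points in the Ccnd1 interval and overlap them in the Cdkn1a and Myc intervals.

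The direction depended on the scaling, and the libraries differed in how many of their reads lay in peaks. MB peaks held 9.46, 6.65 and 9.24% of the reads in myotubes, against 34.6, 38.8 and 31.5% in myoblasts. With total reads, the median 10 kb window had a log2 fold change of 0.78. Ccnd1 and Cdkn1a each lay 1.65 below that median (-1.65 on the log2 scale) and Myc lay 1.16 below it (-1.16). Background scaling, which uses factors that centre the 10 kb windows, moved the median to 0.08. All 3 intervals were then lower in myotubes, with log2 fold changes of -1.54 for Ccnd1, -1.65 for Cdkn1a and -1.11 for Myc (limma voom, adjusted p = 3.12e-07, 8.25e-07 and 0.000517). With it, 18.8% of all windows were lower and 2.15% higher, and 98.2% of windows with an MB peak were lower.

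Scaling by the reads in MB peaks turned all 3 directions around. The log2 fold changes were then 1.10 for Ccnd1, 1.19 for Cdkn1a and 1.67 for Myc (limma voom, adjusted p = 0.000419, 2.96e-07 and 3.75e-08). That scaling sets the sum of reads in MB peaks equal between libraries, and 96% of all windows and 72.7% of those with an MB peak were also higher with it. Set against the median window with an MB peak, the 3 intervals stood 0.26, 0.26 and 0.75 higher on the log2 scale with total reads, and 0.20, 0.29 and 0.77 higher when scaled by reads in MB peaks.

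**Figure D2:**
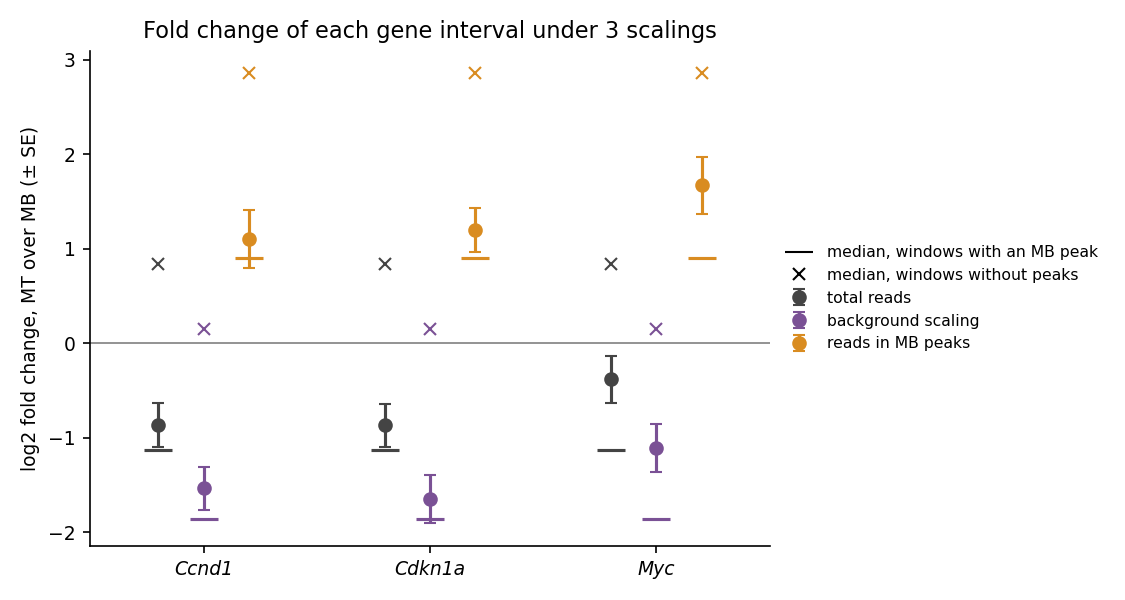
Log2 fold change (myotubes over myoblasts, ± SE) of each gene interval under 3 scalings; dashes mark the median of 10 kb windows with an MB peak and crosses the median of windows without peaks. Under each scaling the 3 genes lie between those medians, from -1.65 to -0.38 with total reads or background scaling and from 1.10 to 1.67 when scaled by reads in MB peaks.

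Measured against its own surroundings, each gene stood above local background in all 3 myoblast libraries, and less or not at all in myotubes. This ratio divides the read density of the interval by that of 10 kb windows without peaks within 250 kb (48, 35 and 22 windows for Ccnd1, Cdkn1a and Myc) and needs no scaling between libraries. For Ccnd1 it was 0.81, 0.59 and 0.633 in the myotube libraries, against 2.01, 2.88 and 2.26 in the myoblast libraries. All 3 myotube libraries had a lower density over Ccnd1 than around it. For Cdkn1a the ratio was 1.04, 0.976 and 1.56 in myotubes, against 3.23, 4.31 and 2.87 in myoblasts. For Myc it was 1.29, 0.573 and 1.87 in myotubes, against 2.29, 2.90 and 3.27 in myoblasts.

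The groups did not overlap for any of the 3 genes on this measure. Every myotube library was likewise below every myoblast library in 97.4% of the 10 kb windows with an MB peak, 7.99% of those without peaks and 20% of all windows. The separation of Cdkn1a and Myc, which hold MB peaks, is thus shared with nearly all windows that carry an MB peak. Ccnd1 holds no listed peak, so the share of 7.99% for windows without peaks is the one beside it. The mean ratios were 0.678 ± 0.117 in myotubes and 2.38 ± 0.451 in myoblasts for Ccnd1 (SD, n = 3 each; exact permutation test, two-sided, p = 0.1). For Cdkn1a they were 1.19 ± 0.321 in myotubes and 3.47 ± 0.752 in myoblasts (SD, n = 3 each; exact permutation test, two-sided, p = 0.1). For Myc they were 1.25 ± 0.652 in myotubes and 2.82 ± 0.491 in myoblasts (SD, n = 3 each; exact permutation test, two-sided, p = 0.1). A p of 0.1 is the smallest that 3 against 3 libraries allow, so none could reach 0.05. The local background itself was denser in myotubes: 0.403 ± 0.0291 RPM per kb against 0.215 ± 0.0601 in myoblasts around Ccnd1, 0.411 ± 0.0568 against 0.274 ± 0.0804 around Cdkn1a, and 0.558 ± 0.0225 against 0.31 ± 0.0265 around Myc (SD, n = 3 each). Set against the 20 kb flanks instead, the Ccnd1 ratio was 0.762, 0.590 and 0.604 in myotubes, against 1.41, 1.63 and 1.43 in myoblasts. For Cdkn1a it was 1.52, 1.22 and 2.06 in myotubes, against 3.87, 5.36 and 3.62 in myoblasts. For Myc it was 1.06, 0.489 and 1.62 in myotubes, against 1.66, 1.87 and 2.26 in myoblasts. Other windows were not set against flanks, so no separation is read from this ratio.

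**Figure D3:**
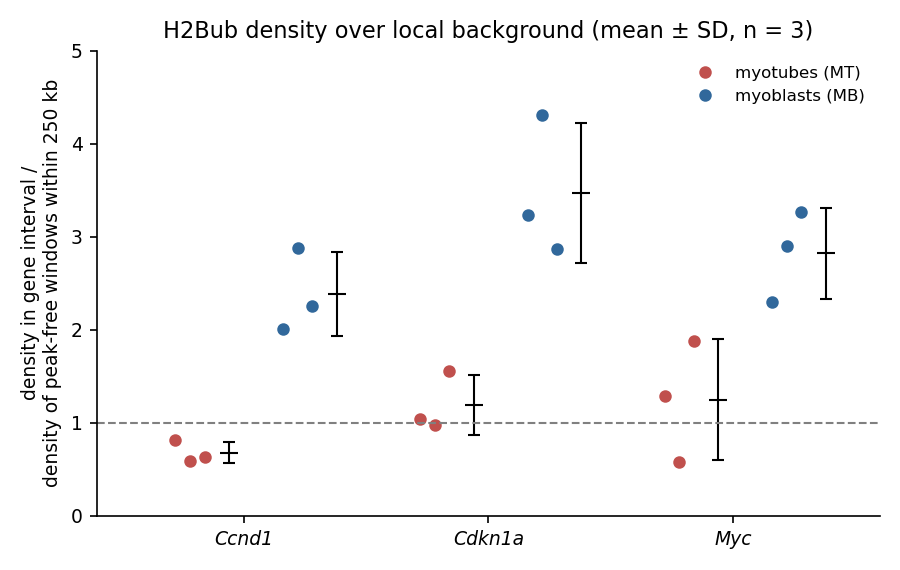
Read density of each gene interval divided by that of peak-free 10 kb windows within 250 kb, with 1 point per library and the mean ± SD (n = 3); the dashed line marks equal density. Myoblast points lie between 2.01 and 4.31, myotube points between 0.573 and 1.87, and the groups are apart for each gene. They were also apart in 97.4% of 10 kb windows with an MB peak, which Cdkn1a and Myc hold. Of windows without peaks, the class of Ccnd1, 7.99% were apart.

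Compared with windows that hold an MB peak, Ccnd1 was of low density in myoblasts, and Cdkn1a and Myc lay below the median. Ccnd1 itself holds no listed peak. In myoblasts the mean density was 0.506 RPM per kb over Ccnd1, 0.927 over Cdkn1a and 0.869 over Myc, while the median window with an MB peak had 1.18. Ccnd1 was denser than 4.45% of the 33628 windows with an MB peak, Cdkn1a than 33.1% and Myc than 28.6%. All 3 were denser in myoblasts than at least 97.1% of the 208685 windows without peaks. In myotubes the densities were 0.273 RPM per kb over Ccnd1, 0.502 over Cdkn1a and 0.686 over Myc. They exceeded 25.5%, 82.3% and 99.4% of the windows without peaks. Of the windows with an MB peak, whose median was 0.559 in myotubes, they exceeded 1.64%, 31.9% and 81.4%. By the mean of 3 libraries, Myc thus lay higher among these windows in myotubes than in myoblasts. Its myotube libraries had 0.706, 0.334 and 1.02 RPM per kb, with replicate 2 below that median, so this rank depended on the library.

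The chromosomes that carry the genes differed in background too. Windows without peaks on chromosome 7 had 0.764 times the genome-wide density of such windows in myotubes and 0.799 times in myoblasts. The Cdkn1a chromosome 17 had 0.986 times in myotubes and 1.01 times in myoblasts, and the Myc chromosome 15 had 1.30 times in myotubes and 1.24 times in myoblasts. The part of this in the level differences between the genes was not tested. The ratios between genes within a library were compared between the groups in 3 pairs, and none differed beyond its spread. The log2 ratio of densities of Cdkn1a over Ccnd1 was 0.82 ± 0.57 in myotubes and 0.88 ± 0.16 in myoblasts (SD, n = 3 each; exact permutation test, two-sided, p = 1, adjusted over 3 pairs 1). Myc over Ccnd1 had 1.20 ± 0.66 in myotubes and 0.80 ± 0.21 in myoblasts (SD, n = 3 each; exact permutation test, two-sided, p = 0.6, adjusted 0.9). Myc over Cdkn1a had 0.38 ± 0.50 in myotubes and -0.08 ± 0.24 in myoblasts (SD, n = 3 each; exact permutation test, two-sided, p = 0.3, adjusted 0.9). A p that misses the threshold does not show that the genes moved alike.

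The mark was not spread evenly along the genes. In myoblasts the mean density over Cdkn1a was 0.483 RPM per kb in the start part of the interval, 1.08 in the middle part and 1.21 in the end part, and over Myc it was 0.538, 0.631 and 1.44. The densest 500 bp bin of Cdkn1a lay 6.25 kb from the start of the interval and had 0.525 ± 0.175 RPM in myotubes and 1.28 ± 0.231 RPM in myoblasts (SD, n = 3 each). In Myc the densest myoblast bin lay 4.75 kb from the start, with 0.463 ± 0.324 RPM in myotubes and 0.851 ± 0.248 RPM in myoblasts (SD, n = 3 each). In Ccnd1 it lay 5.75 kb from the start, with 0.141 ± 0.122 RPM in myotubes and 0.516 ± 0.46 RPM in myoblasts (SD, n = 3 each). The Myc and Ccnd1 bins were chosen as densest in myoblasts, so their gaps follow in part from that choice. The densest myotube bin of Myc, at 4.25 kb, had 0.831 ± 0.628 RPM in myotubes and 0.845 ± 0.170 in myoblasts. That of Ccnd1, at 5.25 kb, had 0.431 ± 0.321 and 0.443 ± 0.137 (SD, n = 3 each). The Cdkn1a bin was the densest in both groups. With total reads, myotube means were lower in 19 of 21 bins of Ccnd1, 15 of 21 of Cdkn1a and 8 of 11 of Myc. These counts rest on few reads per bin. Bins over the genome were not compared in this way, and no other scaling was applied to them. No loss along these genes is therefore read from the counts.

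**Figure D4:**
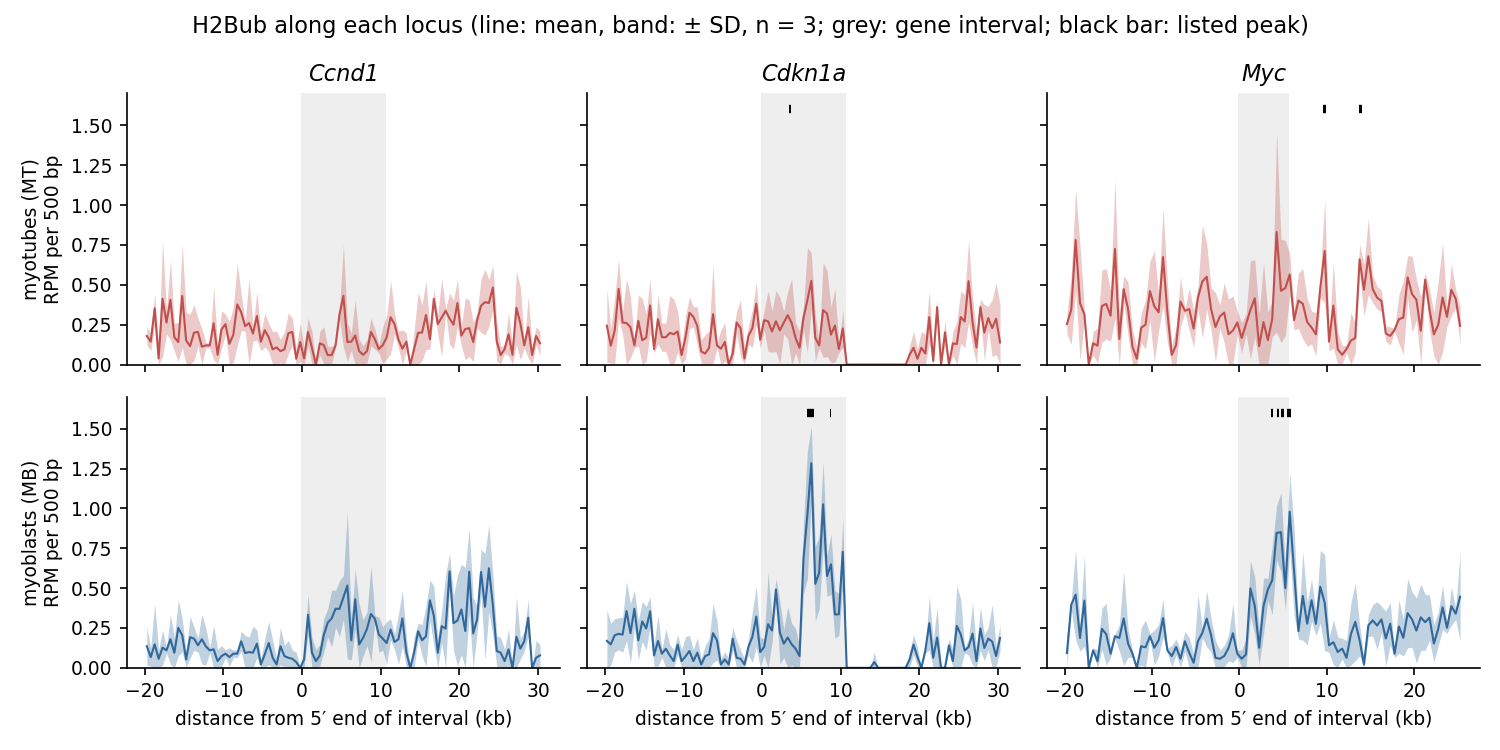
Mean RPM in 500 bp bins (band: ± SD, n = 3) along each gene interval (grey) and the 20 kb on both sides, myotubes above and myoblasts below, with listed peaks as black bars. In myoblasts Cdkn1a reaches 1.28 at 6.25 kb, where myotubes have 0.525; the stretch just after the Cdkn1a interval is nearly empty in all 6 libraries.

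Each interval was also cut into 3 equal parts, counted from the start of the gene, a division added in the course of the analysis. In Cdkn1a the middle and end parts fell with total reads, and the start part did not pass the test in either direction. The start part had 13, 13 and 37 reads in myotubes, against 9, 18 and 38 in myoblasts (log2 fold change 0.12, SE 0.32, limma voom, adjusted p = 0.715). The middle part had 14, 11 and 43 reads in myotubes, against 30, 40 and 69 in myoblasts (log2 fold change -0.99, SE 0.27, limma voom, adjusted p = 0.00161). The end part had 9, 12 and 33 reads in myotubes, against 29, 56 and 68 in myoblasts (log2 fold change -1.41, SE 0.28, limma voom, adjusted p = 9.31e-05). Scaled by reads in MB peaks, the middle part was higher instead (log2 fold change 1.02, limma voom, adjusted p = 0.00502), and the end part had 0.57 and did not pass the threshold (adjusted p = 0.125).

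A ratio of the end part to the start part, added after these values had been seen, needs no scaling between libraries. A tilt of Cdkn1a toward its end was present in every myoblast library and in no myotube library. The end part was 0.692, 0.923 and 0.892 times as dense as the start part in myotubes, against 3.22, 3.11 and 1.79 times in myoblasts. On the log2 scale the ratio was -0.27 ± 0.23 in myotubes and 1.39 ± 0.48 in myoblasts (SD, n = 3 each; exact permutation test, two-sided, p = 0.1, adjusted over 3 genes 0.3). For Ccnd1 it was 0.12 ± 0.76 in myotubes and 0.58 ± 0.23 in myoblasts, and for Myc 0.88 ± 0.55 in myotubes and 1.41 ± 0.31 in myoblasts (SD, n = 3 each; exact permutation tests, two-sided, p = 0.4 and 0.3, adjusted 0.4 each). In those 2 genes the groups overlapped. Nothing outside the 3 genes was measured in this way, so the tilt is not read as particular to Cdkn1a. The start part of Cdkn1a is 3.5 kb long, and its 2 annotated starts lie 2790 bp apart. Where the downstream start falls on mm9 was not checked, so much of the start part may lie before it.

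In Ccnd1 the middle part was lower in myotubes with total reads (log2 fold change -0.95, SE 0.29, limma voom, adjusted p = 0.00392). It was higher when scaled by reads in MB peaks (1.12). The end part of Ccnd1 had 10, 3 and 14 reads in myotubes, against 11, 18 and 31 in myoblasts. Its log2 fold change was -1.09 (SE 0.38) with total reads and 1.00 scaled by reads in MB peaks. With total reads it was -0.65 without myotube replicate 2 and -0.91 without myoblast replicate 3. These end part values are a description with no test, since its myoblast libraries by themselves met the minimum of reads. In Myc the end part, which held 2 of its 4 MB peaks whole and a piece of each of the others, had 22, 9 and 37 reads in myotubes, against 23, 24 and 50 in myoblasts (log2 fold change -0.47, SE 0.29, limma voom, adjusted p = 0.121). It was -0.76 and called without myotube replicate 3, and -0.073 (adjusted p = 0.808) without myotube replicate 2. With background scaling and all libraries, the end part of Myc was -1.17 and called lower (limma voom, adjusted p = 0.000691). The middle part of Myc had 4, 1 and 23 reads in myotubes, against 7, 12 and 25 in myoblasts. Its log2 fold change of -1.06 (SE 0.49, limma voom, adjusted p = 0.0436) ranged from -1.05 to -0.24 and was no longer called when myoblast replicate 2 or 3 or myotube replicate 1 or 2 was left out, with -0.24 without myotube replicate 2. Without myotube replicate 3 it was -2.08 and called (adjusted p = 0.00259). The start parts of Ccnd1 and Myc held too few reads to be tested.

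**Figure D5:**
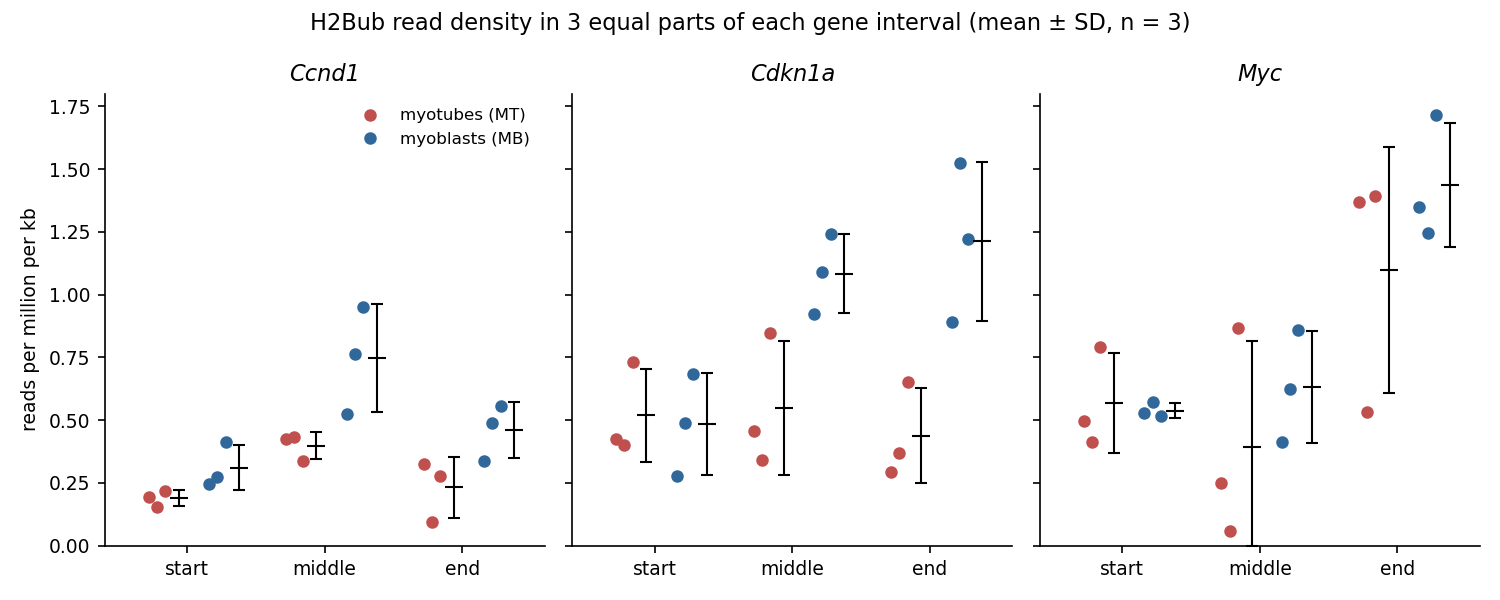
RPM per kb in 3 equal parts of each gene interval, from the start to the end of the gene, with 1 point per library and the mean ± SD (n = 3; a bar that would pass below 0 ends at 0). Scaled by total reads, the end part of Cdkn1a has 0.439 in myotubes and 1.21 in myoblasts, while its start part has 0.519 in myotubes and 0.483 in myoblasts.

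The peak lists, 1 per group and without scores, placed peaks in Cdkn1a and Myc and none in Ccnd1. The MT list had 1 peak in Cdkn1a and none in Ccnd1 or Myc; the MB list had 2 in Cdkn1a, 4 in Myc and none in Ccnd1. MT peaks covered 2.80% of the Cdkn1a interval and MB peaks 9.92% of it, and MB peaks covered 16.7% of the Myc interval. For Ccnd1 the nearest MT peak lay 307 kb away and the nearest MB peak 377 kb away. Its lower read count in myotubes was therefore measured where neither list has a peak within 250 kb. Around Cdkn1a there were 11 MT and 81 MB peaks within 250 kb, and around Myc 27 MT and 176 MB peaks.

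The widest of these peaks was the MB peak in the middle of Cdkn1a, chr17:29233219-29234095 (876 bp). It held 7, 6 and 18 reads in myotubes, against 22, 21 and 39 in myoblasts, and the groups did not overlap in RPM. The means were 0.897 ± 0.309 RPM in myotubes and 2.28 ± 0.241 RPM in myoblasts (SD, n = 3 each). The log2 fold change was -1.27 with total reads and 0.78 scaled by reads in MB peaks. These values are a description with no test, since the peak was chosen from the myoblast list and its myoblast libraries by themselves met the minimum of reads. Of all peak regions with enough reads, 98.8% were called lower in myotubes with total reads, so nothing about Cdkn1a is read from its direction. The other 6 of the 7 regions in the intervals held fewer reads than the minimum.

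The other regions are given by their reads. The second MB peak of Cdkn1a, chr17:29236087-29236253, held 0, 2 and 3 reads in myotubes, against 4, 5 and 8 in myoblasts. The 4 MB peaks of Myc, between chr15:61820091 and chr15:61822438, together held 58 reads in myotubes and 105 in myoblasts. The MT peak of Cdkn1a, chr17:29230898-29231192, began 3.40 kb from the start of the interval and held 1, 1 and 7 reads in myotubes, against 0, 4 and 1 in myoblasts. Most of its myotube reads were thus in replicate 3, the library that was also highest over the whole gene.

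Of the 6 flanks of 20 kb beside the genes, 3 were called higher and 0 lower with total reads. Of all 10 kb windows tested, 70.9% were called higher and 13.1% lower, so this count is not read as a gain beside these genes. The 20 kb upstream of Ccnd1 had 72, 68 and 116 reads in myotubes, against 32, 42 and 84 in myoblasts, and the 20 kb upstream of Myc had 112, 123 and 175 in myotubes, against 65, 51 and 119 in myoblasts. Both were higher in myotubes with total reads (log2 fold change 0.87 and 1.02, SE 0.20 and 0.21, limma voom, adjusted p = 0.000366 and 0.000124), close to the median window without peaks (0.84), and were not called with background scaling (0.21 and 0.32). Upstream of Cdkn1a the log2 fold change was 0.45 with total reads (SE 0.20, limma voom, adjusted p = 0.0410) and -0.23, not called, with background scaling. That call was also lost without myoblast replicate 1 or 2 or myotube replicate 1 or 3 (0.35 to 0.47). None of the 3 downstream flanks was called with total reads, but that of Cdkn1a, at 0.49, was called without myoblast replicate 3 (0.71) or myotube replicate 1 (0.75), with the replicate number as a block (0.54, adjusted p = 0.0199) and with libraries thinned to equal depth (0.66, adjusted p = 0.0194). The downstream flank of Ccnd1, on the side of LTO1 in the RefSeq gene order, had 73, 74 and 149 reads in myotubes, against 65, 89 and 202 in myoblasts (log2 fold change -0.02, SE 0.21, limma voom, adjusted p = 0.941), and was called lower with background scaling (-0.72).

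Downstream of Myc, on the side of the non-coding gene Pvt1, the MT list had 2 peaks outside the gene. That at chr15:61830165-61830538 held 5, 8 and 9 reads in myotubes, against 0, 2 and 2 in myoblasts. That at chr15:61826088-61826363 held 4, 9 and 3 reads in myotubes, against 6, 1 and 3 in myoblasts. The groups were apart at the first of these peaks and overlapped at the other. Both peaks were chosen from the myotube list and held few reads, so nothing is read from their direction. After Cdkn1a, on the side of Rab44, 15 of 39 bins of 500 bp held 0 reads in all 6 libraries, so where its signal ended could not be read.

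On the genome-wide grid of 10 kb windows, 1 of the 6 windows over the genes was called lower and 1 higher with total reads, where 13.1% of all windows were lower and 70.9% higher. With background scaling 4 of the 6 were lower and 0 higher, against 18.8% and 2.15% of all windows. The lower one with total reads, chr17:29230001-29240000, holds most of Cdkn1a (log2 fold change -1.01, SE 0.23, limma voom, adjusted p = 0.000395). The higher one with total reads, chr15:61810001-61820000, holds sequence upstream of Myc and its start (log2 fold change 0.57, SE 0.22, limma voom, adjusted p = 0.0157). Its call was lost without myoblast replicate 1 or 2 or myotube replicate 3 (0.35 to 0.52), and it turned to -0.15, not called, with background scaling. The 2 windows over Ccnd1 mix gene and flank and were not called with total reads (log2 fold change -0.39 and -0.41, limma voom, adjusted p = 0.114 and 0.103), but both were called lower without myoblast replicate 1 (-0.57 and -0.54) and with background scaling (-1.04 and -1.07, adjusted p = 0.00021 and 0.00014). The window chr15:61820001-61830000, with the end of Myc, had -0.26 with total reads (limma voom, adjusted p = 0.204) and -0.97 with background scaling (adjusted p = 0.000476).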

How the data were processed

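H2Bub chromatin immunoprecipitation libraries were sequenced by the authors, who deposited mapped reads as positions with their strand, 1 file for each library, on mm9 per the submitters' processing notes. A list of peak boundaries, with no score, was deposited for each group. Not given in the sources used here are the aligner, the filters and the peak caller. No position and strand was repeated within a library. At most 0.833% of the position and strand slots of an interval, and 2.40% of those of a peak region, were occupied in any library.

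Reads were counted here in the 3 intervals, their 20 kb flanks, 3 equal parts of each, 10 kb windows and merged peak regions, boundaries included, and scaled by reads on chromosomes 1 to 19 and X. Intervals, flanks and parts were fitted together with all windows, and regions in a table of their own, with limma 3.58.1 (voom, two-sided, Benjamini-Hochberg) in R 4.3.3. A feature was tested where 3 libraries held 10 or more reads (scaled to the median depth) and all libraries 15; 3 of 3 intervals, 6 of 6 flanks, 7 of 9 parts and 1 of 7 regions passed. Background scaling used trimmed mean of M-values factors over the windows (0.719 to 0.826 in myoblasts, 1.25 to 1.33 in myotubes). Counting and permutation tests ran in Python 3.11.15 (pandas 2.3.3, NumPy 2.4.6, SciPy 1.17.1), and figures in matplotlib 3.10.9; the fit was tested on simulated data. The same ratio to peak-free windows within 250 kb was taken for each 10 kb window with 10 or more such neighbours. Poisson intervals cover counting error only, since reads carry no molecular identifiers.

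The members and lists were chosen with earlier results of these data known. The named items were the 3 genes and every peak region and 10 kb window over them. A wider cell cycle list was not analysed here, because no mm9 annotation was at hand. The alternatives were the scalings, leaving out each library, a replicate block, shifted positions, no minimum of reads, wider or narrower intervals, limma-trend, thinning and 5 kb windows.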

Additional observations from a re-analysis of the deposited data

How the results depend on the processing

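The intervals of Ccnd1 and Cdkn1a stayed lower and called under every alternative except scaling by reads in MB peaks, where they were 1.10 and 1.19 and Myc was 1.67. That scaling also turned the downstream flank (1.94), end part (1.00) and middle part (1.12) of Ccnd1, the middle (1.02) and end (0.57, not called) parts of Cdkn1a, the middle (0.98) and end (1.60) parts of Myc, the windows over Ccnd1 (1.61 and 1.62), Cdkn1a (1.01) and Myc (1.72) and the 876 bp region of Cdkn1a (0.78, not called). By construction it removes any change shared by MB peaks. Background scaling gave Myc -1.11, now called, called 48894 windows instead of 196492, and turned the Cdkn1a flanks (-0.23 and -0.22), the start part of Cdkn1a (-0.58), the downstream flank of Myc (-0.49) and the windows at the start of Cdkn1a (-0.46) and Myc (-0.15). With 1 library left out, log2 fold changes ranged from -1.05 to -0.68 for Ccnd1, -1.22 to -0.70 for Cdkn1a and -0.83 to -0.0044 for Myc with total reads. With background scaling, added after the data were seen, they ranged from -1.77 to -1.42 for Ccnd1 and -1.95 to -1.42 for Cdkn1a. Myc was then called each time, at -1.21, -1.07, -1.04, -1.16, -0.70 and -1.54, and 49659, 41427, 47686, 44555, 45128 and 47033 windows were called. The group difference in the log2 ratio of Cdkn1a over Ccnd1, which needs no scaling, ranged from -0.37 to 0.18 with 1 library left out. With total reads and 1 library left out, the start part of Cdkn1a ranged from -0.21 to 0.48 and its start window from -0.084 to 0.65. The downstream flank of Ccnd1 then ranged from -0.20 to 0.17. The replicate block turned that flank (0.027) and gained one on the downstream flank of Cdkn1a (0.54) and ended that on the middle part of Myc (-0.70), which was also lost with no minimum of reads (-1.03), shifted positions (-0.94) or 5 kb windows (-0.98); for the intervals it gave -0.90, -1.01 and -0.38, and with background scaling, added later, -1.20 for Myc and 51534 windows. Same-numbered libraries had correlations of deviations of -0.00028, -0.17 and 0.15 over windows, so libraries were not treated as pairs. With whole peaks required, 3 MB peaks lay in Myc. The cause of these changes was not tested beyond the scalings. Depth limits the peaks most, since 6 of 7 regions held too few reads to test.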
